A study of Mus musculus with 6 samples.

Results

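Mitochondrial ribosomal protein genes were compared between control and MICT1 knockout cells of a brown preadipocyte line after differentiation. MICT1 is a microprotein of brown fat. The genes were taken by symbol, Mrpl or Mrps followed by a digit, and 78 of the 13283 genes in the deposited table matched, 49 with an Mrpl (large subunit) and 29 with an Mrps (small subunit) symbol. All 78 passed the filter on low values, and no symbol was that of a pseudogene. The cells were an immortalized mouse brown preadipocyte line that stably expressed Cas9. MICT1 KO cells had been transduced with a lentivirus carrying a single guide RNA against MICT1 and sorted for GFP, and Scr cells carried a scrambled guide. Both were taken through brown adipocyte differentiation and, on day 6, given 10 µM forskolin, an activator of adenylyl cyclase, for 6 h. RNA-seq was run on 3 libraries of each. Adipocyte markers were far lower in the KO cells, as given below. The KO cells were pools of edited cells made with either of 2 guides, and the labels do not say which guide each library carried. All came from 1 line, every library was treated with forskolin, the level of MICT1 itself was not analysed here, and the p-values measure the spread between these cultures only.

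Mitochondria carry their own ribosome, made of RNA encoded in mitochondrial DNA and of proteins that are encoded in the nucleus, made in the cytosol and imported. This mitoribosome translates the few mitochondrial messages, which encode membrane subunits of respiratory complexes I, III and IV and of the ATP synthase, complex V. Brown adipocytes are rich in mitochondria, because uncoupled respiration is their source of heat. Some mitoribosomal proteins have a counterpart in the bacterial ribosome and the others are specific to mitochondria.

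Mitochondrial ribosomal protein genes were more often lower than higher in MICT1 KO cells, by small amounts. Of the 78, 36 (46.2%) were called lower (limma-trend, Benjamini-Hochberg adjusted p under 0.05), against 28.3% of the 12507 genes tested. Only 3 (3.85%) were called higher, against 28.5% of all genes tested, and 39 were not called. In either direction 56.9% of all genes tested were called. The median log2 fold change, MICT1 KO over Scr on the log2(value + 1) scale, was -0.22 with quartiles of -0.36 and -0.057, where the median of all genes tested was -0.0053. The sign was negative for 63 genes and positive for 15, and the extremes were -0.92 and 0.29, so that no gene fell by 2-fold. For 40 of the 78 genes (51.3%) all 3 KO values lay below all 3 Scr values, against 31.2% of all genes tested, and for 4 (5.13%) they lay above, against 30.9%. Of these 44 genes 7 were not called, and 2 genes were called although their groups overlapped. Because the members were read from bulk RNA, fewer differentiated cells and less RNA per cell cannot be told apart in any of these values.

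**Figure D1:**
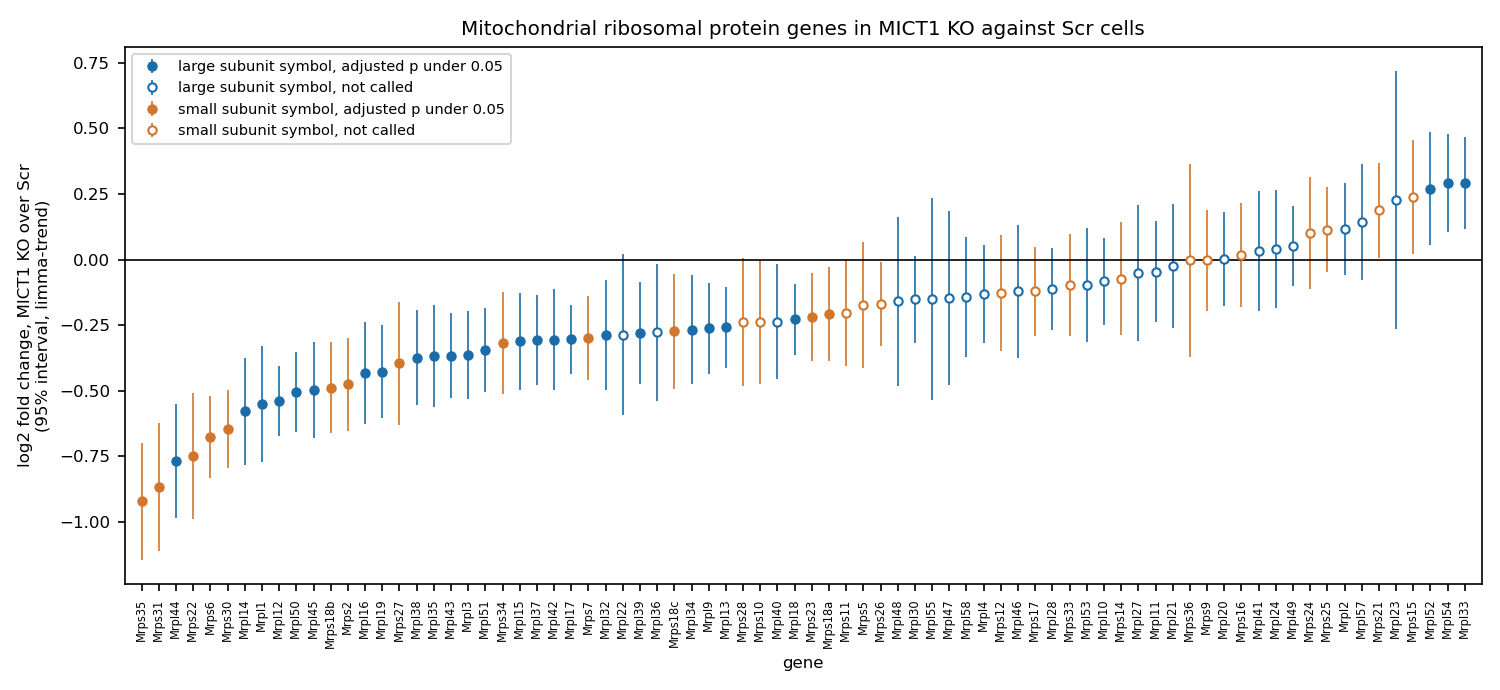
The log2 fold change of each of the 78 genes, MICT1 KO over Scr, ordered from lowest to highest, with its 95% interval from limma-trend. Colour gives the subunit by symbol and filled points an adjusted p under 0.05. The filled points are 36 on the negative and 3 on the positive side.

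The libraries of the 2 groups were on opposite sides. Estimated reads per library ran from 15445811 to 17925629, and the deposited values were scaled to a common level by a factor for each library. Summed over the 78 genes, expression was 3251 to 3429 normalised reads per 1000000 (CPM) in the Scr and 2702 to 2910.2 CPM in the KO libraries, with no overlap. Taking each gene as a log2 deviation from its mean over the 6 libraries, the median deviation was 0.090, 0.082 and 0.15 in Scr replicates 1, 2 and 3 and -0.058, -0.18 and -0.12 in KO replicates 1, 2 and 3. KO replicate 2 held the lowest value of the 6 for 37 of the genes, KO replicate 3 for 17 and KO replicate 1 for 10, and Scr replicate 3 held the highest for 32. Leaving out each library in turn moved the count called lower between 32 and 38 and the median fold change between -0.25 and -0.19. The 2 lowest counts came without KO replicate 2 and without Scr replicate 3. Of the 36 genes called lower, 29 remained so in all 6 of these fits. Among all genes tested 3544 were called lower with all libraries and 3114 to 3344 in these fits.

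**Figure D2:**
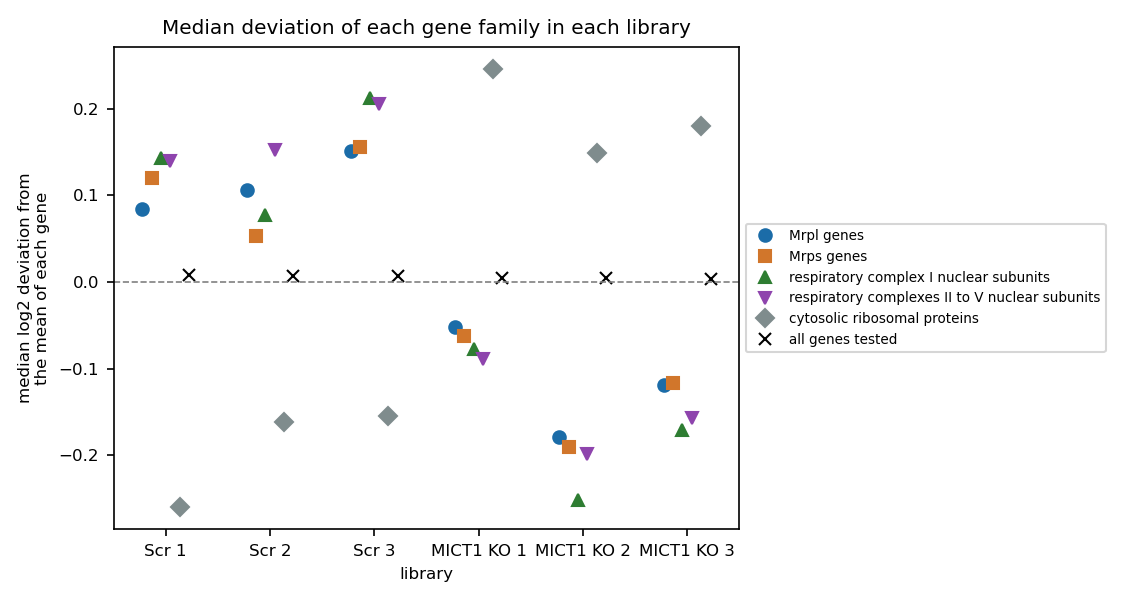
Median log2 deviation from the mean of each gene over the 6 libraries, for the Mrpl and Mrps genes and for other gene families, by library. The Mrpl and Mrps points lie above 0 in the 3 Scr and below 0 in the 3 MICT1 KO libraries, and the cytosolic ribosomal proteins lie on the opposite side in each.

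The 4 largest falls held 3 proteins of the small subunit, all specific to mitochondria. Mrps35 (mS35, chromosome 6, 147042728-147070906 on GRCm38) had 565, 641 and 669 normalised reads in Scr replicates 1 to 3 and 343, 291 and 356 in KO replicates 1 to 3. Its groups were well apart, and it fell by 0.92 on the log2 scale (SE 0.11, adjusted p = 2.66e-07), a decrease of the mean of 47.2%. Mrps31 (mS31, chromosome 8, 22410449-22429669) had 607, 680.4 and 758 normalised reads in Scr and 439, 311 and 376 in KO cells. The KO values varied more than those of Mrps35 but stayed below every Scr value, with a log2 fold change of -0.87 (SE 0.12, adjusted p = 2.20e-06). Mrps22 (mS22, chromosome 9, 98588730-98601679) went from 544, 517 and 504 normalised reads in Scr to 334, 259 and 344 in KO cells. This was a log2 fold change of -0.75 (SE 0.12, adjusted p = 1.17e-05), and the lowest value was again that of KO replicate 2.

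Another pair of genes with small subunit symbols was among the 10 largest falls. Mrps6 (chromosome 16, 92058336-92112227) encodes a protein with a bacterial counterpart, bS6m. It had 1211, 1221 and 1271 normalised reads in Scr and 836, 749 and 736 in KO cells, a log2 fold change of -0.68 (SE 0.075, adjusted p = 1.37e-07). The values of each group were close together, though Mrps6 is one of the 6 genes whose values held fractions of a read. Mrps30 (chromosome 13, mL65) carries a small subunit symbol, but structures of the mitoribosome place its protein in the large subunit. It had 1244, 1311 and 1331 normalised reads in Scr and 834, 786 and 864 in KO cells, a log2 fold change of -0.65 (SE 0.072, adjusted p = 1.48e-07). No KO value came near the Scr range.

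Among the genes with large subunit symbols, Mrpl44 fell most. Its protein, mL44, is specific to mitochondria, resembles ribonuclease III and lies near the exit of the peptide tunnel. Mrpl44 (chromosome 1, 79776018-79781445) had 565, 674 and 629.9 normalised reads in Scr and 394, 323 and 380.4 in KO cells, a log2 fold change of -0.77 (SE 0.10, adjusted p = 2.58e-06). Mrpl14 encodes uL14m, which lies on the face that meets the small subunit and is bound by the assembly factor Malsu1 before the subunits join. It had 665, 635 and 809 normalised reads in Scr and 473, 452 and 479 in KO cells, a log2 fold change of -0.58 (SE 0.098, adjusted p = 3.76e-05). Its Scr replicate 3 stood above the other 2, and its KO values were nearly alike. Mrpl1, whose protein uL1m belongs to the stalk at the exit site for tRNA, had 568, 526 and 648 normalised reads in Scr and 425, 353 and 410.5 in KO cells. The groups did not overlap, and the log2 fold change was -0.55 (SE 0.11, adjusted p = 0.000164). Mrpl50, specific to mitochondria, had 1183, 1059 and 1143 normalised reads in Scr and 801, 803 and 778 in KO cells, a log2 fold change of -0.50 (SE 0.074, adjusted p = 6.10e-06).

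**Figure D3:**
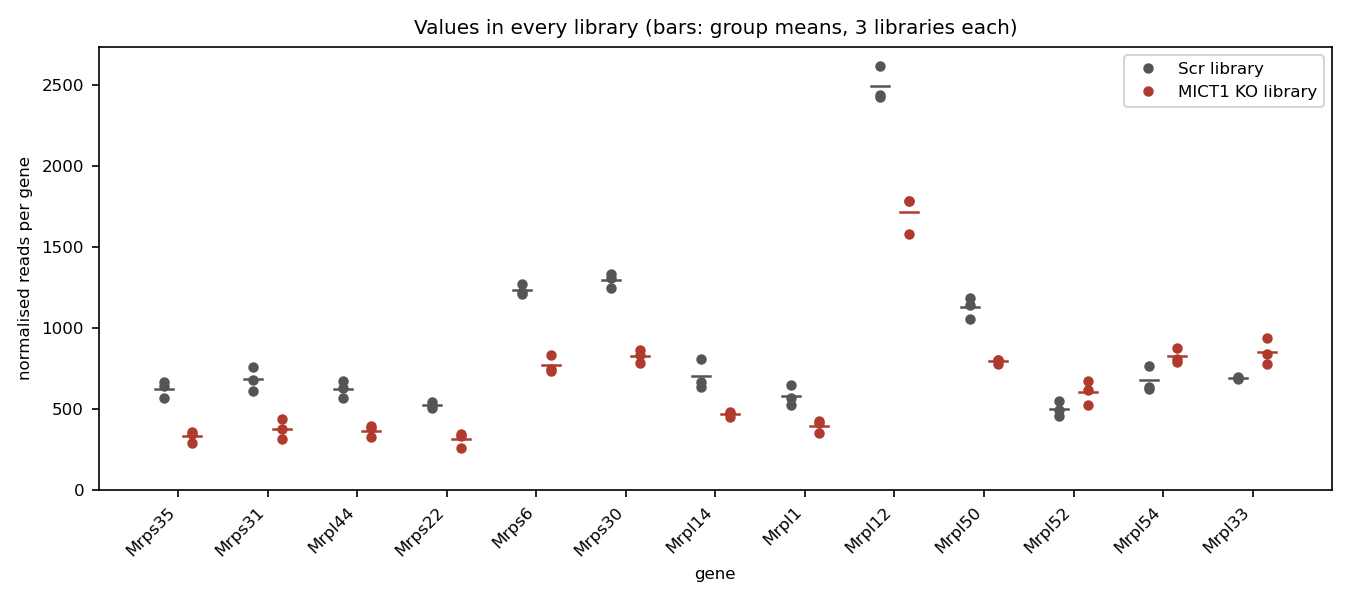
Normalised reads per gene in each library for the 10 largest falls among genes called lower and the 3 genes called higher. Points are libraries and bars the means of 3. For the 10 genes on the left no KO point reaches the Scr points, and for Mrpl52 the groups overlap.

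The 3 genes called higher all encode proteins of the large subunit. Mrpl33 (bL33m) had 692, 699.9 and 687 normalised reads in Scr and 941, 774 and 838 in KO cells, a log2 fold change of 0.29 (SE 0.084, adjusted p = 0.00570). The Scr values lay within a narrow band, and every KO value was above it. Mrpl54 (mL54) had 638, 767 and 624 in Scr and 788, 877 and 809 in KO cells, a log2 fold change of 0.29 (SE 0.090, adjusted p = 0.00896). The lowest KO value was only just above the highest Scr value, and once the trend with GC content and gene length was removed Mrpl54 was not called, at a log2 fold change of 0.16 (adjusted p = 0.0821). Mrpl52 (mL52) had 453, 494 and 548 normalised reads in Scr and 669, 526 and 614 in KO cells, a log2 fold change of 0.27 (SE 0.10, adjusted p = 0.0312). Its groups overlapped, and it was not called in 4 of the 6 fits that left out a library, with adjusted p between 0.0762 and 0.150. Mrps15 and Mrps21, named after their values were seen, were the 2 small subunit genes with a positive difference at an unadjusted p under 0.05, with log2 differences of 0.24 (adjusted p = 0.0578) and 0.19 (adjusted p = 0.0699).

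Of the 3 genes for the L7/L12 stalk, which recruits translation factors to the large subunit, 1 was called lower and the others were not called. Mrpl12, the stalk protein that also binds mitochondrial RNA polymerase, had 2439, 2427 and 2619 normalised reads in Scr and 1787, 1583 and 1784 in KO cells. It fell by 0.54 on the log2 scale (SE 0.065, adjusted p = 4.21e-07), and its 3 KO values were all far below the Scr values. Mrpl10, the base of the stalk, had 777, 792 and 759 normalised reads in Scr and 754, 763 and 685 in KO cells, a log2 difference of -0.08 with a 95% interval of -0.25 to 0.08 (adjusted p = 0.400). Mrpl11, which binds beside it, had 538, 549.7 and 551 normalised reads in Scr and 521, 576 and 492 in KO cells, a log2 difference of -0.05 with an interval of -0.24 to 0.15 (adjusted p = 0.693). For both the groups overlapped. The intervals of Mrpl10 and Mrpl11 did not reach that of Mrpl12, which ran from -0.67 to -0.41, but the difference between genes was not tested.

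At the exit of the peptide tunnel, where new proteins pass to the inner membrane, 5 genes were chosen, of which the mitochondria-specific Mrpl44 and Mrpl45 were called lower and Mrpl22, Mrpl23 and Mrpl24, with bacterial counterparts, were not called. Of other exit proteins with bacterial counterparts, Mrpl17 was called lower (-0.30) and Mrpl47 was not called (-0.15). Mrpl45, which anchors the ribosome to the membrane, had 901, 1027 and 1032 normalised reads in Scr and 788, 662 and 651 in KO cells. This was a log2 fold change of -0.50 (SE 0.088, adjusted p = 6.43e-05) with no overlap. Mrpl22 had 196, 228 and 215 normalised reads in Scr and 194, 155 and 175 in KO cells. All KO values were below the Scr values, yet at this lower level the log2 difference of -0.29 (interval -0.59 to 0.02) did not pass the test (adjusted p = 0.105). Removing the trend with GC content and length brought Mrpl22 to -0.32 with an adjusted p of 0.0123. Mrpl23 and Mrpl24 had positive log2 differences of 0.23 (interval -0.27 to 0.72, adjusted p = 0.433) and 0.04 (interval -0.18 to 0.26, adjusted p = 0.773), with groups that overlapped. In the small subunit, Mrps12, a protein of the decoding site, had 448, 425 and 420.3 normalised reads in Scr and 351, 429.9 and 406 in KO cells. Its log2 difference was -0.13 with an interval of -0.35 to 0.09 (adjusted p = 0.319).

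The paralogs Mrps18a, Mrps18b and Mrps18c, 3 relatives of bacterial S18 whose proteins sit at different places in the mitoribosome, were all called lower, with unequal firmness. Mrps18b (mS40) had 906, 934 and 885 normalised reads in Scr and 719.8, 606 and 622 in KO cells, a log2 fold change of -0.49 (SE 0.084, adjusted p = 4.38e-05). It was called in every fit that left out a library. Mrps18c (bS18m) had 506, 435 and 541 normalised reads in Scr and 439, 392 and 392 in KO cells. Its groups overlapped by 1 library, with a log2 fold change of -0.27 (SE 0.11, adjusted p = 0.0323), and 4 of the 6 fits that left out a library lost the call (highest adjusted p 0.147, without Scr replicate 3). Mrps18a, placed in the large subunit as mL66, had 624, 674 and 702 normalised reads in Scr and 574, 598 and 559.7 in KO cells. No values overlapped, but the log2 fold change of -0.21 (SE 0.086, adjusted p = 0.0466) lay near the threshold. The call was lost with scaling by library size (adjusted p = 0.0510) and in 4 of those 6 fits (highest adjusted p 0.152, without Scr replicate 3).

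The large and the small subunit were lower to a like degree. The counts are to be read beside the 28.3% lower and 28.5% higher of all genes tested. By symbol, 23 of 49 large subunit genes (46.9%) were lower and 3 higher, and the median log2 fold change was -0.24. Of 29 small subunit genes 13 (44.8%) were lower and 0 higher, and the median was -0.21. The count of 0 was the same with limma-voom, and 2 small subunit genes were higher at an unadjusted p under 0.05 in limma-trend. The difference of the medians, large minus small, was -0.030. Within single libraries the median deviation of large minus small genes ran from -0.037 to 0.053 among Scr and from -0.0023 to 0.012 among KO libraries, so that the groups overlapped and the difference was no larger than the spread between libraries. Without KO replicate 2 it was 0.0018. Counting Mrps30 and Mrps18a with the large subunit and Mrps36, now described as a subunit of a dehydrogenase complex, with neither gave 25 of 51 large and 11 of 26 small subunit genes lower and medians of -0.24 and -0.21.

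By class of protein, the counts differed more than by subunit. Of 31 genes for mitochondria-specific proteins 18 were lower and 2 higher (median log2 fold change -0.28), and of 46 with a bacterial counterpart 18 were lower and 1 higher (median -0.19). The counts stood furthest apart in the small subunit, where 7 of 10 mitochondria-specific genes were lower (median -0.36) and 4 of 16 with a bacterial counterpart (median -0.15), or 70% and 25% beside the 28.3% of all genes tested. In the large subunit the counts were 11 of 21 and 14 of 30, and the medians -0.24 and -0.24. Beside Mrps35, Mrps31, Mrps22 and Mrps18b, the 7 held Mrps27 (-0.40), Mrps34 (-0.32) and Mrps23 (-0.22), all without overlap between groups. Mrps23 was called in only 2 of the 6 fits that left out a library (highest adjusted p 0.0704, limma-trend). Mrps18b and Mrps18a count as mitochondria-specific by their names in the structure, mS40 and mL66, though both are relatives of bacterial S18. The split by class was not a planned comparison. These classes were assigned from knowledge of the structures, and the difference between them was not tested, since genes are not replicates. They hold only genes with Mrpl or Mrps symbols. Left out are the 5 mitoribosomal proteins with other symbols, of which 2 were lower, 1 higher and 2 not called.

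**Figure D4:**
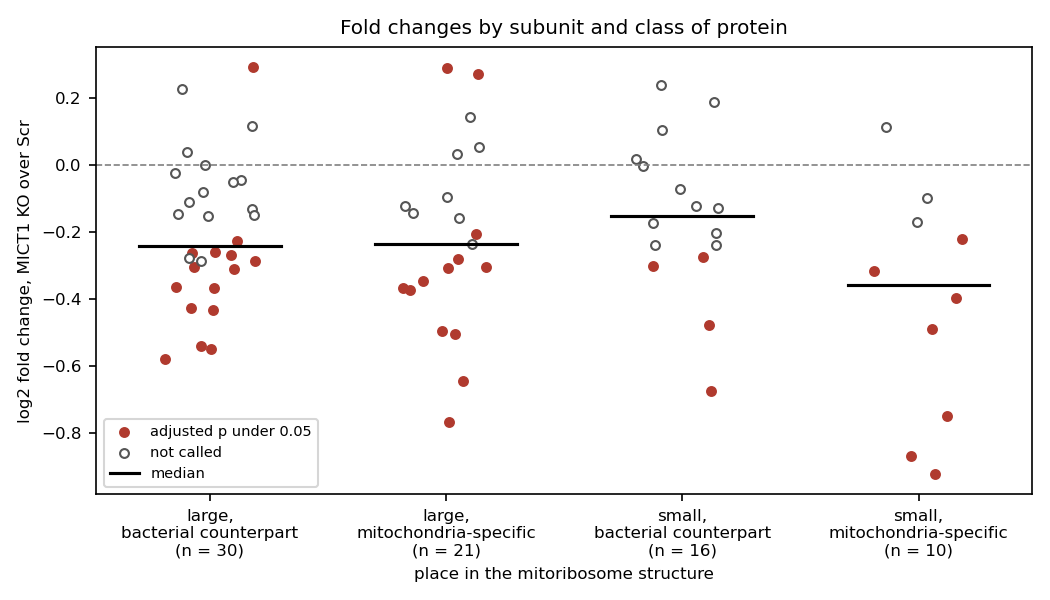
Log2 fold change, MICT1 KO over Scr, of genes with Mrpl or Mrps symbols. Genes are grouped by place of the protein in the mitoribosome and by whether its name in the structure marks a bacterial counterpart. Points are genes (77, without Mrps36), filled where the adjusted p was under 0.05, and bars are medians, the lowest of which, -0.36, is that of the mitochondria-specific proteins of the small subunit.

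Levels of the 78 genes spanned a wide range. Reads per kilobase of transcript and per 1000000 reads (RPKM), computed with the median length of the protein-coding transcripts of each gene, ran from 3.85 to 124 with a median of 29.3. By the mean over all 6 libraries Mrpl17 was highest, with 137 ± 2.46 RPKM in Scr and 111 ± 2.76 in KO cells (SD, n = 3 each). Its log2 fold change was -0.30 (adjusted p = 0.000337), and in KO cells it lay within the spread of Mrpl33, at 109 ± 10.2 RPKM. Mrpl20 and Mrpl30 followed by that mean, at 99.6 ± 4.77 and 105 ± 10.2 RPKM in Scr and 100.2 ± 10.5 and 94.4 ± 1.12 in KO cells, within their spread of each other. Neither was called, with log2 differences of 0.00089 (adjusted p = 0.995) and -0.15 (adjusted p = 0.109). Lowest were Mrpl47 at 4.06 ± 0.848 RPKM in Scr and 3.64 ± 0.373 in KO, Mrpl23 at 6.19 ± 1.36 and 7.24 ± 1.28, and Mrpl19 at 8.44 ± 0.296 and 6.29 ± 0.122. Of these only Mrpl19 was called, at a log2 fold change of -0.43 (adjusted p = 0.000214). The order depended on the length used, since with the union of all exons the highest was Mrpl12, at 84.1 RPKM, and Mrpl17 had 12.1. Across the 78 genes the log2 fold change had a Pearson correlation of -0.32 and a Spearman correlation of -0.37 with the log2 length of the coding transcripts, -0.22 and -0.23 with the log2 mean value, and 0.18 and 0.18 with GC content. These points share 6 libraries and are not independent, and the correlations are given as a description.

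None of the 10 largest falls changed its call when a library was left out. In the 6 fits that left out a library, 17 of the 78 genes changed their call at least once. Of those, 7 were called lower with all libraries, 9 were not called and 1 was Mrpl52. The share of all genes tested that changed their call was not computed. Their count called lower was 3544 with all libraries and 3114 to 3344 in the same fits. Among these 17 genes the widest ranges of log2 fold change were those of Mrps10, Mrps28 and Mrpl9. Mrps10 had 481, 469 and 501 normalised reads in Scr and 480.5, 345 and 416 in KO cells, where KO replicate 1 lay within the Scr range. Its log2 difference of -0.24 (adjusted p = 0.0804) became -0.35 (adjusted p = 0.0126) without KO replicate 1. Mrps28 had 445, 469 and 394 normalised reads in Scr and 358, 323 and 430.2 in KO cells. Here KO replicate 3 was the high one, and the log2 difference of -0.24 (adjusted p = 0.0875) became -0.35 (adjusted p = 0.0213) without it and -0.31 (adjusted p = 0.0475) without Scr replicate 3. Mrpl9 had 1078, 1132 and 1143 normalised reads in Scr and 897, 839.7 and 1072 in KO cells, with a log2 fold change of -0.26 (adjusted p = 0.0112) that was -0.19 (adjusted p = 0.0726) without KO replicate 2.

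Exons of 33 of the 78 genes overlap an exon of another gene, and for 7 the gene with the largest overlap is on the same strand. Smaller overlaps were not sorted by strand, and the counting is not stated to use strand. In 72 genes the values were whole reads in every library (within 0.05 of a read). The other 6, Mrpl19, Mrpl24, Mrpl43, Mrpl48, Mrps6 and Mrps25, held fractions of a read and shared at least 305 exon bases with another gene. Some genes with whole reads shared more than 305, such as Mrps34 with 1309 and Mrpl53 with 695. For the 45 genes without overlap, 19 (42.2%) were called lower, 2 (4.44%) were called higher and the median was -0.21 on the log2 scale. For the 72 with whole reads 33 (45.8%) were called lower, 3 (4.17%) higher and the median was -0.22. The shares of all genes tested were 28.3% lower and 28.5% higher.

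The genes lay on 17 chromosomes. Of the 78 symbols 69 had a promoter in the RefSeq table (GRCm38.p6, 250 bases before to 50 after the start). Both strands were searched for 6 motifs. The binding motif of NRF1, a factor known for activating nuclear genes of mitochondrial proteins, searched as GCGCANGCG, was in 16 of the 69 (23.2%), against 15.6% of the genes tested and 7.03% of all genes with a promoter. The motif CCGGAAGT of ETS factors such as GABP was in 12 (17.4%, against 9.20% of genes tested and 4.31% of all), and AAGATGGCG of YY1 in 8 (11.6%, against 3.61% and 1.64%). TGACGTCA, the cAMP response element, was in 2 (2.90%, against 3.60% and 2.03%), the E-box CACGTG in 5 (7.25%, against 11.9% and 8.09%), and the ERR motif TCAAGGTCA in 0, against 0.290% and 0.466%. Of the 30 genes called lower with a promoter, 9 held the NRF1, 7 the ETS and 5 the YY1 motif, and of the other 39 these were in 7, 5 and 3. No matches of different motifs overlapped each other. A match is only a match of letters, and no binding was measured. The 150 bases before the start are printed for the 4 genes with the lowest fold change among called genes with a motif match before the start, from RefSeq on GRCm38.p6, 5' to 3' on the strand of the gene, with the motif in capitals. For Mrpl44 only 30 bases are shown, as its window overlaps the first exon of Wdfy1 on the opposite strand. The motif is NRF1 in Mrpl44, Mrpl12 and Mrpl45 (2 matches) and ETS in Mrps22, and in Mrpl12 it reads on the opposite strand.
Mrpl44, chr1:79775973-79776002, plus strand: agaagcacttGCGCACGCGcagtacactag
Mrps22, chr9:98601680-98601829, minus strand: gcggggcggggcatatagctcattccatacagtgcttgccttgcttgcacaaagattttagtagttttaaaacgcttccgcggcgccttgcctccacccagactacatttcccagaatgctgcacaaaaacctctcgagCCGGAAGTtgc
Mrpl12, chr11:120484487-120484636, plus strand: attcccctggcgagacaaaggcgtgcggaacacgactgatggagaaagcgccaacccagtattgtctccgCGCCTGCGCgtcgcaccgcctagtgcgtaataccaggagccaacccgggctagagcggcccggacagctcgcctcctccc
Mrpl45, chr11:97315566-97315715, plus strand: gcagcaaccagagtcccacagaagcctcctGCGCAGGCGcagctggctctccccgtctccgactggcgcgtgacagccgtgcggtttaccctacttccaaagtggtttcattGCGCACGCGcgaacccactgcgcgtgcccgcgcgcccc
Mrpl44 and Mrps22 carry their match within 40 bases of the start, at -35 and -11, and Mrpl12 at -80, while Mrpl45 has a match at -120 and another at -38. The annotated span of Mrpl45 begins further upstream, at position 97314923, so its window lies inside the gene. The window of Mrps31 held none of the 6 motifs. Mrpl14 also holds an NRF1 match, but after its start, and is not shown.

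The rest of the mitochondrial translation machinery, in lists drawn up from known function, held more genes lower than higher, to be read beside the 28.3% lower and 28.5% higher of all genes tested. Of the 5 mitoribosomal proteins with other symbols, Ptcd3 (mS39) and Dap3 (mS29) were lower, with log2 fold changes of -0.43 (adjusted p = 7.63e-06) and -0.31 (adjusted p = 0.000599). Gadd45gip1 (mL64) was higher, from 711, 729 and 748 normalised reads in Scr to 1001, 949 and 905 in KO cells, a log2 fold change of 0.38 (SE 0.076, adjusted p = 0.000228). Chchd1 and Aurkaip1 were not called. The median log2 fold change of these 5 was positive, at 0.044, with 3 genes positive and 2 negative. Among 26 factors for mitoribosome assembly and rRNA modification 10 (38.5%) fell, 0 rose and the median was -0.15. Tfb1m, which methylates the small subunit rRNA, had the largest fall at -0.90 (SE 0.25, adjusted p = 0.00440), from 90.0, 117 and 111 normalised reads to 82.9, 45.3 and 46.6, with KO replicate 1 close to the Scr values. Malsu1, which binds the product of Mrpl14, had a log2 fold change of -0.74 (adjusted p = 9.04e-05), and is named here after its value was seen. Assembly factors such as Noa1 (0.02) and Mtg2 (0.01) were not called.

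Of 12 translation factors 5 (41.7%) fell, 0 rose and the median was -0.24. Gfm2, an elongation factor G that works in ribosome recycling, went from 437, 436 and 463 normalised reads to 273, 289 and 308, a log2 fold change of -0.62 (adjusted p = 4.70e-05). Tufm, which brings tRNA to the ribosome, fell by 0.27 on the log2 scale (adjusted p = 0.00665), and Mrrf, the recycling factor, was not called at -0.12 (adjusted p = 0.418). Of 20 genes for mitochondrial tRNA charging 13 (65.0%) fell, 0 rose and the median was -0.37, and Fars2, for phenylalanine, had the largest fall at -0.95 (SE 0.18, adjusted p = 0.000164). Among 18 genes of mitochondrial transcription and mRNA stability 8 (44.4%) fell, 0 rose and the median was -0.23. Fastkd1 had the largest fall in that list at -0.74 (adjusted p = 0.00105), and Polrmt, the RNA polymerase, Tfam, which packages mitochondrial DNA, and Lrpprc, which stabilizes messages, had log2 fold changes of -0.31 (adjusted p = 0.00408), -0.28 (adjusted p = 0.00202) and -0.43 (adjusted p = 0.000109). Of 6 genes for membrane insertion and translational activation 4 (66.7%) fell and 0 rose, with a median of -0.36. Oxa1l, the insertase that receives new proteins at the tunnel exit, went from 795, 831 and 913 normalised reads to 521, 449 and 502, a log2 fold change of -0.79 (SE 0.090, adjusted p = 2.17e-07). In these 5 lists 0 genes rose by limma-trend, by limma-voom or at an unadjusted p under 0.05 in limma-trend.

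Nuclear genes of the respiratory chain were also more often lower than higher, and those of the cytosolic ribosome were more often higher. Nuclear subunits of complex I had 23 of 40 lower and 1 higher (median -0.30), and those of complexes II to V had 31 of 44 lower and 2 higher (median -0.29). Cytosolic ribosomal protein genes had 2 of 83 lower and 71 higher, with a median of 0.39. Their summed level was 26007 to 27196 CPM in Scr and 34538 to 37272 CPM in KO libraries. The families were taken by symbol and may hold genes whose proteins are not subunits. These are counts and medians over the same 6 libraries, without a test between families. They stand beside 28.3% lower and 28.5% higher of all genes tested.

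Markers of differentiation moved with the same groups. All 13 adipocyte markers in the table were lower in KO cells (13 of 13, median log2 fold change -3.66), with a summed level of 8750.4 to 10466 CPM in Scr and 989 to 1431 CPM in KO libraries. Adipoq was lowest of these, at a log2 fold change of -6.66. Ucp1 was low in both groups, with 20.8, 24.1 and 30.5 normalised reads in Scr and 1.91, 1.05 and 9.33 in KO cells. Of 8 progenitor and fibroblast markers tested, 4 were higher and 2 lower, with Dcn at 4.75 and Dlk1 at -3.47. The 10 in the table summed to 2797 to 3274 CPM in Scr and 4279 to 4473 CPM in KO libraries. In this sum Col1a1 had means of 1097 CPM in Scr and 1874 CPM in KO cells, and Dcn 22.3 and 595 CPM. Col1a2 and Col3a1 were not called. The part of these markers in the result for the mitochondrial ribosomal protein genes was not tested. Macrophage markers summed to between 6.33 and 9.86 CPM in all libraries with 0 of the 3 in the table called by limma-trend, by limma-voom or at an unadjusted p under 0.05, and the defining markers Adgre1 and Ptprc are not listed. Muscle markers summed to between 3.37 and 5.74 CPM with 0 of 2 called by the same 3 readings, and Myod1 and Myog are not listed. Of the endothelial markers only Cdh5 is listed, at 0.369 to 0.725 CPM in Scr and 1.59 to 2.03 CPM in KO libraries.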

How the data were processed

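RNA-seq of 3 Scr and 3 MICT1 KO libraries was used, grouped by the labels. The authors deposited 1 table, whose unit is a signal per gene scaled between libraries. Per the labels, the submitters' processing notes name Partek, STAR and DESeq2 and the build GRCm38 (mm10). The counting model and annotation are not given in the sources used here, and the labels and the methods describe library preparation differently. The values behave as read numbers that were estimated per gene and then scaled by library (88.7 to 90.2% of values under 20 were whole reads within 0.01). Pearson correlations of log2(value + 1) across genes were 0.987 to 0.990 within and 0.929 to 0.940 between groups.

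Genes that reached 10 in 3 or more libraries (12507 of 13283) were fitted on log2(value + 1), with a pseudocount of 1, by limma-trend (limma 3.58.1, R 4.3.3), with Benjamini-Hochberg adjustment over all genes tested and a threshold of 0.05. Fold changes on this scale understate those of low genes. Intervals are 95%. CPM is relative to the summed signal, and RPKM used the lengths of GENCODE vM21 (found for 78 of the 78 members). Positions and promoters came from RefSeq. The functions were tested on simulated data. With 3 libraries a group, an exact permutation test of 1 value cannot go below p = 0.1, so single genes rest on the spread limma shares across genes.

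Named were the 10 lowest called genes, all called higher, the 3 highest and 3 lowest by RPKM, genes fixed by place (stalk, tunnel exit, decoding site, Mrps18 paralogs), the 3 with the widest range among genes whose call changed when a library was left out, and, in each further list, the largest called change in each direction, with Tfam, Polrmt, Lrpprc, Tufm and Mrrf. The members and lists were chosen with earlier results of these data known. The alternatives were scaling by library size or trimmed mean of M values, pseudocounts of 0.5 and 5, no filter, a mean of 4 CPM, limma-voom, the replicate block, removal of GC and length trends, each library left out and subunits by structure. Members without exon overlap or with whole reads alone were added after seeing the data. The split by class of protein was not among the planned comparisons either.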

Additional observations from a re-analysis of the deposited data

How the results depend on the processing

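Under the alternatives other than leaving out a library, the genes called lower numbered 35 to 42 and those called higher 3 or 4, and the median log2 fold change stayed between -0.22 and -0.21. The most were called lower, 42, once GC and length trends were removed (27 large and 15 small subunit genes). Among all genes tested 3544 were lower in the main fit and 3521 once these trends were removed. Leaving out each library gave 32 to 38 members lower and 2 to 4 higher. It left 20 to 24 large and 11 to 14 small subunit genes lower, and a difference of medians of -0.051 to 0.0018. In those fits 3114 to 3344 of all genes were lower and 3269 to 3334 higher, against 3544 and 3569 with all libraries. With the replicate block 35 members were lower and 3 higher. Same-numbered libraries had correlations of their deviations of -0.024, -0.015 and 0.064, so that the numbers are not taken to pair the samples, and not every sample correlated best with its own number. Mrps18a lost its call with the block (adjusted p = 0.0569). The replicate block with GC and length trends removed gave 41 lower and 4 higher. The members called higher fell from 3 to 2 without Scr replicate 1 and without KO replicate 1, and the difference of medians was -0.051 without Scr replicate 1 and changed sign without KO replicate 2. The other counts and the median of the members kept their direction and moved by less than 1.5 times. Single genes that were not called changed sign. With a library left out Mrpl20 ran from -0.086 (without KO replicate 1) to 0.066 and was -0.0038 and -0.026 without Scr replicates 1 and 2, Mrpl47 ran from -0.28 to 0.014 (without Scr replicate 3), Mrpl11 from -0.11 to 0.0057 (without KO replicate 3) and Mrpl24 from -0.051 (without KO replicate 1) to 0.13, and the cause was not tested. Of the other values of single named genes, 16 lost their call, 8 gained one and 721 kept direction and call. No member is a pseudogene, so leaving such symbols out gave no value. Depth limits the lowest genes most, as in Mrpl23, where the 95% interval of the log2 difference ran from -0.27 to 0.72.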

Other observations

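Of the 78 genes, 25 share a bidirectional start with a protein-coding gene on the opposite strand, with starts within 500 bases, a comparison chosen after the values were seen. One such pair joins members, Mrpl46 and Mrps11, and the other genes have 23 partners. Of these partners 5 were lower, 5 higher and 13 not called (limma-trend, Benjamini-Hochberg adjusted p under 0.05), with a median log2 fold change of -0.04. The shares among all genes tested were 28.3% lower and 28.5% higher. Of the 23 members beside these partners 11 were lower, where 46.2% of all 78 members were. In 4 pairs gene and partner were called in the same direction, among them Mrpl44 (-0.77) with Wdfy1 (-0.58) and Mrps27 (-0.40) with Ptcd2 (-0.53). In 3 pairs they were called in opposite directions. Mrpl51 had -0.34 where Ncapd2, a condensin subunit, had 0.36, Mrps18b had -0.49 where Ppp1r10 had 0.21, and Mrps18c had -0.27 where Helq had 0.27. Mrpl49 was not called at 0.05 while Fau, a cytosolic ribosomal protein gene whose start lies 59 bases away, was higher at 0.71 (adjusted p = 6.73e-10). Where the first exons of a pair overlap, reads of the 2 genes cannot be told apart if strand was not used in counting.

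Lars2, the mitochondrial leucyl-tRNA synthetase, had by far the widest spread in its list, with values between 11164 and 48143 normalised reads, the highest in Scr replicate 2, and was not called at a log2 difference of -0.32 (adjusted p = 0.406).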
